A study of Mus musculus with 5 samples.

Results

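The genes described here are the heat shock proteins and the chaperones of the endoplasmic reticulum (ER). They were taken by symbol: every gene whose symbol starts with Hsp (except *Hspg2*), Dnaj, Pdia or Uggt, together with *Canx*, *Calr*, *Hyou1*, *Sdf2l1*, *Creld2* and *Manf* where a probe set carried that name. This gave 81 of the 19505 genes named on the array, each with 1 probe set. By where the protein is known to work, 24 were placed in the ER, 42 in the cytosol and nucleus, 8 in the mitochondrion, and 7 were left as other or unassigned. *Manf*, *Pdia4*, *Hspa8* and *Hsp90ab1* had no named probe set and were not analysed here. RNA came from 3T3-L1 cells, a mouse preadipocyte line that forms fat cells in culture, and was hybridised to Clariom S Mouse arrays. In the MM-3T3-L1 group (n = 3 arrays) the preadipocytes had shared medium for 48 h, through a membrane with 0.4 µm pores, with MM.1S cells, a human multiple myeloma line. In the control group (n = 2 arrays) they had been kept in the same medium alone. The myeloma cells were then removed, the preadipocytes were washed, and both groups were taken through 7 days of adipogenic differentiation, so all RNA came from differentiated cells, collected after the myeloma cells had been removed.

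Chaperones bind proteins that are not yet folded and keep them from aggregating. In the ER, Hsp70 and Hsp90 relatives, lectin chaperones and disulfide isomerases fold secreted and membrane proteins, and a shortage of them triggers the unfolded protein response, a set of sensors and transcription factors that raises their transcription. In the cytosol, the Hsp70, Hsp90 and Hsp110 proteins work with J proteins and small heat shock proteins, and heat shock factors raise their genes under stress. Fat cells secrete adiponectin and other proteins and so load the ER, and myeloma cells, as antibody-secreting cells, are known for their own dependence on ER folding.

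The deposited values are log2 signals that had already been background-corrected, normalized and summarised per probe set. Median log2 values of all probe sets were 4.475 to 4.527 on the MM-3T3-L1 arrays and 4.482 and 4.517 on the control arrays. MM-3T3-L1 replicate 3 had the narrowest spread of values (SD 2.321, against 2.37 and 2.373 on the other MM-3T3-L1 arrays and 2.388 and 2.415 on the control arrays). Adipocyte markers (10 of 11 listed had a probe set) averaged 9.90 to 10.03 on the log2 scale in MM-3T3-L1s and 9.86 to 10.05 in controls. Among them, *Fabp4* lay above 12 on all arrays. Of the 10, 8 had a log2 fold change (MM-3T3-L1 over control) above 0 and 2 had one below it, with a median of 0.10. *Fabp4* was higher on every MM-3T3-L1 array (log2 fold change 0.32, adjusted p = 0.596 in limma). *Slc2a4*, the insulin-regulated glucose transporter, was lower on every MM-3T3-L1 array (-0.34). *Retn* (resistin), a hormone of mouse fat cells, was lower on every one too and past the thresholds given below for the members (-0.63, adjusted p = 0.642 in limma). The part of these markers in the chaperone values was not tested. Preadipocyte and fibroblast markers (7 of 9) averaged 8.03 to 8.15 in MM-3T3-L1s and 8.21 to 8.29 in controls, and 5 of the 7 had a log2 fold change (MM-3T3-L1 over control) below 0. Sets for B-lineage cells (8 of 10), macrophages (5 of 6) and endothelium (5 of 5) averaged 3.35 to 3.47, 3.99 to 4.09 and 2.505 to 2.62 in MM-3T3-L1s, and 3.26, 3.79 to 3.85 and 2.27 to 2.55 in controls. In these sets 2, 2 and 0 markers lay above the background level of 3.586, below which lay 95% of 1450 chemosensory receptor genes that fat cells are not known to use. Of these, *Cd14*, a receptor of macrophages that other cells also carry, was higher in MM-3T3-L1s by 0.83 on the log2 scale. It was past the thresholds given below for the members (adjusted p = 0.467 in limma). The B-lineage probes are for mouse genes, whereas the MM.1S cells are human, so they were not designed to measure RNA of the myeloma cells. Muscle markers (5 of 5) averaged 4.16 to 4.29 in MM-3T3-L1s and 4.20 and 4.24 in controls. In such bulk samples, fewer cells of a type and less RNA per cell cannot be told apart.

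Few of the chaperone genes differed between the groups beyond the spread between arrays, and their number was near what the share over the whole array would give. Higher and lower were called with limma's moderated test and the limits that the study's methods set: a p that is not adjusted of at most 0.05, and a change of more than 1.5 times. By these, 1 of the 81 genes was higher in MM-3T3-L1s (*Hspa1l*) and 2 were lower (*Hspa4l* and *Uggt2*), whereas 0.91% of all 22206 probe sets were higher and 1.44% were lower. At the same p and any fold change, 2 were higher (*Hspd1* in addition) and 3 were lower (*Dnajc21* in addition), beside 3.48% and 4.11% of all probe sets. The 3 MM-3T3-L1 arrays all lay above both control arrays for 8 members and all below them for 13, beside 11.9% and 12.2% of all probe sets. After Benjamini-Hochberg adjustment over all probe sets, limma left 0 of the 81 and 0 of all probe sets at 0.05 or less, and the methods' own test of each probe set alone left 0 and 2. The smallest adjusted p among the members was 0.321, and 5 members had a p of 0.05 or less before adjustment. By the same limits without adjustment, the methods' test also called 1 higher and 2 lower. Of the 81 members, 68 lay above the background level, including all 24 of the ER and all 8 of the mitochondrion but 31 of the 42 in the cytosol and nucleus. The labels do not say whether replicates were separate cultures, and the p-values cover no more than the spread among these arrays. Where a control array was left out, 1 control array remained, so such a fit holds no spread between controls.

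**Figure D1:**
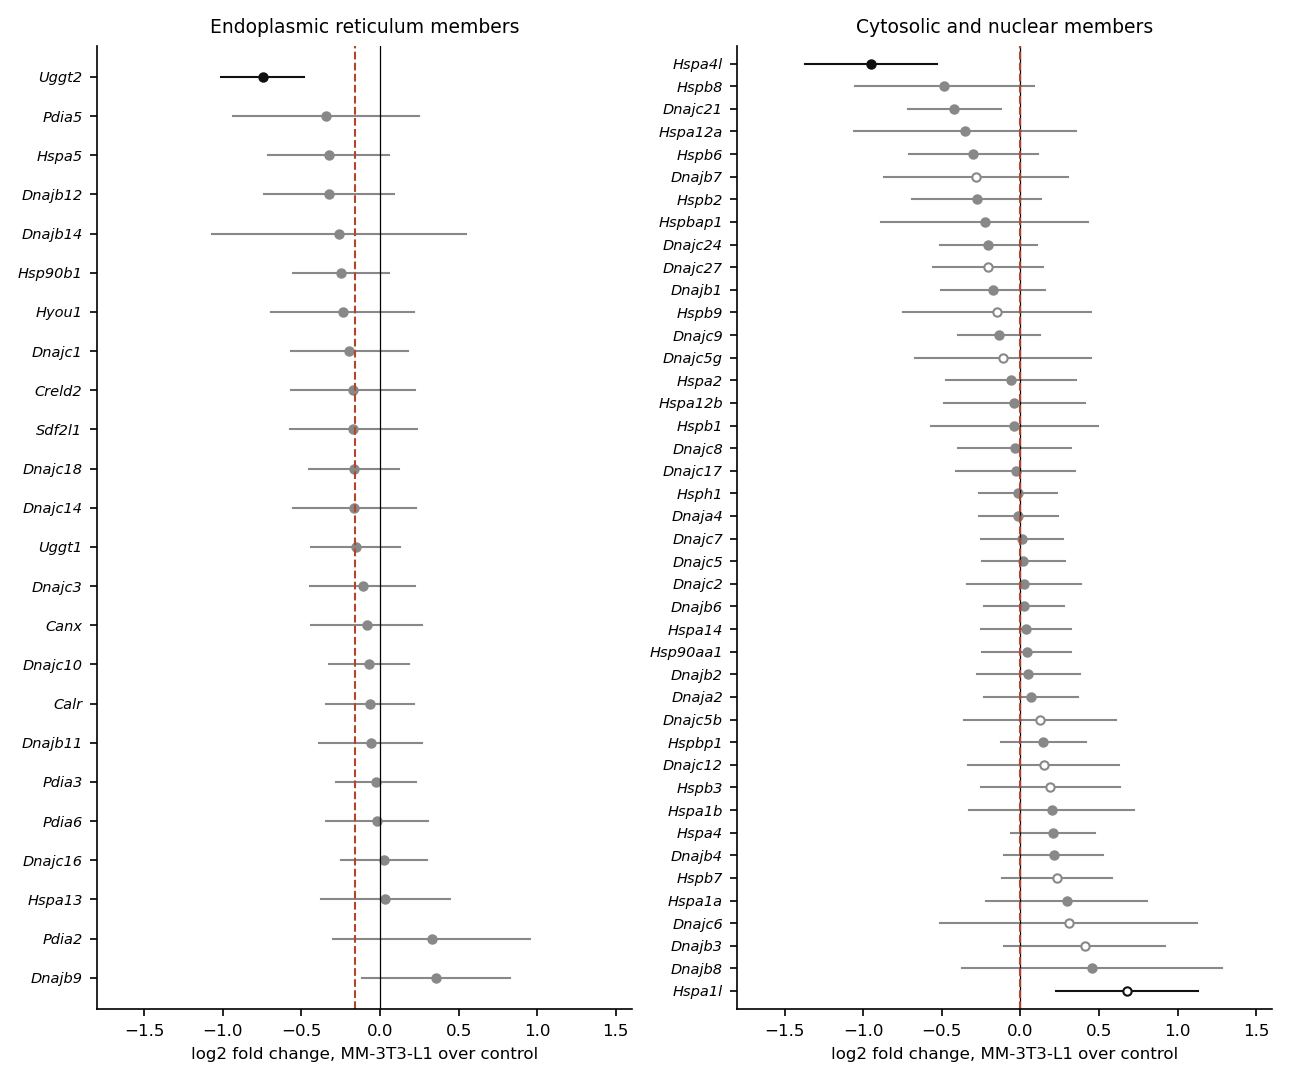
Log2 fold change (x axis, MM-3T3-L1 over control) of the 24 ER genes (left) and the 42 cytosolic and nuclear genes (right), with 95% confidence intervals from limma; black marks genes past the methods' thresholds, open circles genes at or below the background level, and the dashed line the median of the panel. The ER genes lie mostly left of 0 (20 of 24), and the cytosolic genes spread evenly about 0 (21 of 42 below it).

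In the ER group, 20 of 24 genes had a log2 fold change below 0, with a median of -0.16, and 1 gene, *Uggt2*, passed the thresholds. Over all 19505 genes the median was 0.01, with 47.7% below 0. Over the 12136 genes above background it was -0.03, with 55.8% below 0. The MM-3T3-L1 arrays all lay below both control arrays for 7 of the 24 ER genes (*Uggt2*, *Hspa5*, *Dnajb12*, *Hsp90b1*, *Dnajc18*, *Uggt1* and *Dnajc10*), and all above them for 0. Among the 12136 genes above background, 2151 had all MM-3T3-L1 arrays below the controls and 1249 had all above them. Among the 3887 genes at or above the median level of the ER genes (7.12), 879 had all below and 454 had all above.

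The main ER Hsp70 is *Hspa5* (BiP), which holds unfolded chains and keeps the stress sensors of the ER inactive. Its log2 value was 10.30, 10.37 and 10.57 in MM-3T3-L1s, against 10.57 and 10.91 in controls. The highest MM-3T3-L1 array thus lay just below the lower control array. The difference of -0.33 on the log2 scale (SE 0.16, adjusted p = 0.672 in limma), a fold of 0.797, did not pass. Its size depended on the control arrays, at -0.50 without control replicate 1 and -0.16 without control replicate 2. *Hsp90b1* (GRP94), the Hsp90 of the ER, had 10.31, 10.35 and 10.44 in MM-3T3-L1s and 10.50 and 10.73 in controls. Here too the groups did not overlap, and the log2 fold change of -0.25 (adjusted p = 0.677 in limma, SE 0.12) did not pass. It was -0.36 without control replicate 1 and -0.13 without control replicate 2. *Hyou1* (GRP170), a large Hsp70 relative that recharges BiP with ATP, had 6.31, 6.63 and 6.06 in MM-3T3-L1s and 6.60 and 6.55 in controls. Its arrays overlapped (log2 fold change -0.24, SE 0.19). *Hspa13*, an Hsp70-like protein of microsomes, was at 0.03 (SE 0.17).

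The J proteins of the ER lumen switch on the ATPase of BiP and hand clients to it. *Dnajb9* (ERdj4), which binds BiP to the sensor IRE1 and whose gene is a target of the stress factor XBP1, had 7.79, 7.90 and 7.49 in MM-3T3-L1s and 7.15 and 7.58 in controls. This was the largest positive value of the ER group (log2 fold change 0.36, SE 0.19, adjusted p = 0.681 in limma), with MM-3T3-L1 replicate 3 below the higher control array. The value was 0.15 without control replicate 1 and 0.57 without control replicate 2. *Dnajc3* (p58IPK), *Dnajb11* (ERdj3), *Dnajc1* and *Dnajc10* (ERdj5, a disulfide reductase) had log2 fold changes of -0.11, -0.06, -0.20 and -0.07, each smaller than 2 times its SE. The arrays of *Dnajc10* did not overlap but lay close, with 9.07, 9.11 and 9.15 in MM-3T3-L1s and 9.18 on both control arrays. The log2 fold change of *Dnajb11* was 0.00 without MM-3T3-L1 replicate 3.

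The calnexin cycle holds glycoproteins in the ER until they fold. *Uggt1* and *Uggt2* encode the glucosyltransferases that put a glucose back on misfolded glycoproteins, so that the lectins calnexin (*Canx*) and calreticulin (*Calr*) bind them again. *Uggt2* had 4.14, 4.04 and 4.04 in MM-3T3-L1s, against 4.80 and 4.85 in controls. No other member had a smaller p, and the log2 fold change was -0.75 (95% CI -1.01 to -0.48, fold 0.596, adjusted p = 0.321 in limma). The mean of this probe set over the 5 arrays was 4.37, not far above the background level of 3.586. *Uggt1* had 6.84, 6.96 and 7.01 in MM-3T3-L1s and 7.14 and 7.05 in controls, and its difference of -0.16 (SE 0.11) did not pass although the arrays did not overlap. *Canx* had 9.51, 9.50 and 9.18 in MM-3T3-L1s and 9.47 and 9.49 in controls. *Calr* had 10.12, 10.11 and 10.16 in MM-3T3-L1s and 10.10 and 10.29 in controls. For these lectins the groups overlapped, with log2 fold changes of -0.08 (SE 0.14) and -0.06 (SE 0.11). Leaving out MM-3T3-L1 replicate 3 turned *Canx* to 0.02, and leaving out control replicate 2 turned *Calr* to 0.03.

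Protein disulfide isomerases form and shuffle the disulfide bonds of secreted proteins, and 3 of the 4 measured lay below 0. *Pdia3* (ERp57), which works on the clients of calnexin and calreticulin, was nearly the same on every array, with 9.65, 9.68 and 9.67 in MM-3T3-L1s and 9.67 and 9.71 in controls. *Pdia6* had 8.15, 8.14 and 7.88 in MM-3T3-L1s and 8.07 on both control arrays. Its log2 fold change of -0.02 (SE 0.13) came from MM-3T3-L1 replicate 3, and without it was 0.07. *Pdia5* was at -0.34 (SE 0.24), with 5.76, 5.06 and 5.71 in MM-3T3-L1s and 5.74 and 5.96 in controls. *Pdia2*, an isomerase best known from the pancreas, had 3.87, 3.85 and 3.83 in MM-3T3-L1s, against 3.96 and 3.09 in controls, so the control arrays alone differed most (log2 fold change 0.33, SE 0.25). Without control replicate 1, which leaves 1 control array, it reached 0.76.

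*Sdf2l1*, a partner of ERdj3, and *Creld2*, a secreted protein made under ER stress, shared a pattern over the arrays. *Sdf2l1* had 6.64, 6.28 and 6.19 in MM-3T3-L1s and 6.53 and 6.54 in controls, and *Creld2* had 6.73, 6.32 and 6.33 in MM-3T3-L1s and 6.62 and 6.63 in controls. In both, MM-3T3-L1 replicate 1 was the highest of all arrays and the other MM-3T3-L1 arrays were the lowest, and both had a log2 fold change of -0.17 (SE 0.16). Of the 5 J proteins of the ER membrane, 4 lay below 0. *Dnajb12*, which works with Hsp70 in the disposal of membrane proteins, had 6.29, 6.30 and 6.34 in MM-3T3-L1s and 6.39 and 6.88 in controls (log2 fold change -0.32, SE 0.17, adjusted p = 0.678 in limma). The control arrays of *Dnajb12* differed, and it was -0.57 without control replicate 1 and -0.08 without control replicate 2. *Dnajb14*, *Dnajc18*, *Dnajc14* and *Dnajc16* had -0.26, -0.17, -0.16 and 0.02.

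**Figure D2:**
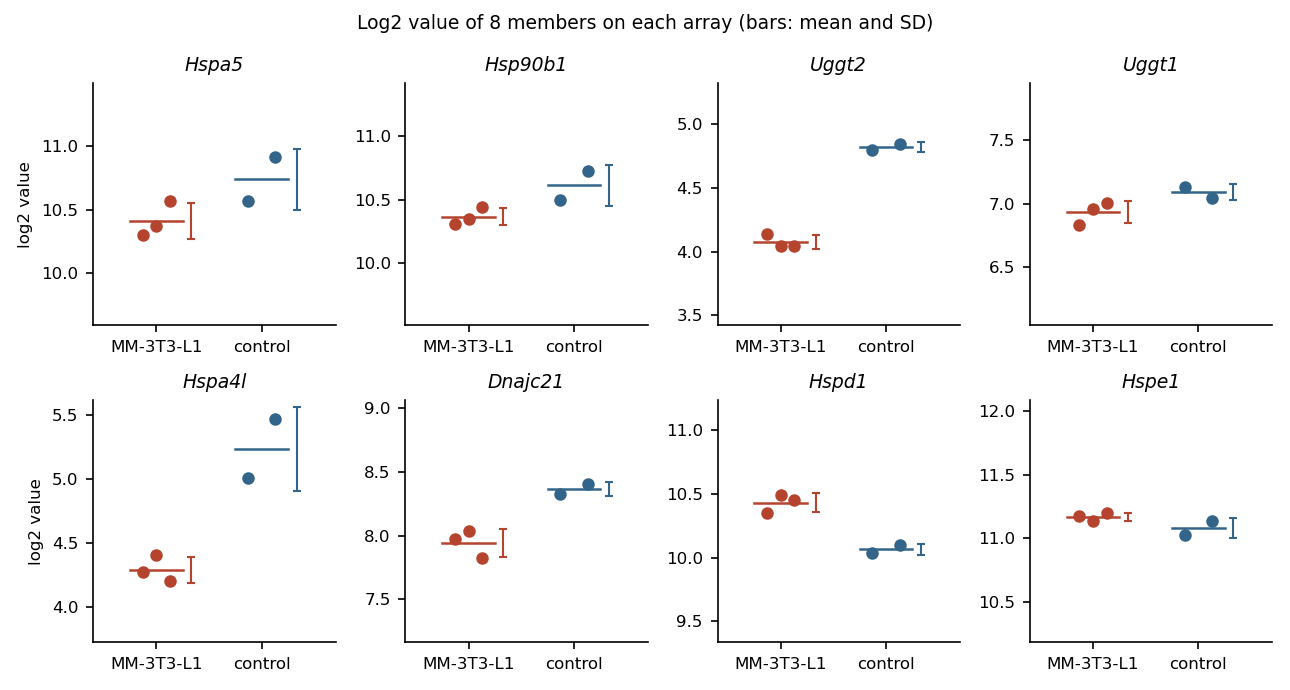
Log2 value (y axis) of 8 members on each array, with the 3 MM-3T3-L1 arrays in red and the 2 control arrays in blue; horizontal lines are group means and vertical bars 1 SD on either side. *Uggt2*, *Hspa4l* and *Dnajc21* lie lower on every MM-3T3-L1 array than on either control array and *Hspd1* lies higher on every one, while *Hspe1* overlaps and *Hspa5*, *Hsp90b1* and *Uggt1* are separated by small gaps.

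The ER stress response element is the promoter site through which ATF6 and its partner NF-Y raise ER chaperone genes. It was searched, as the letters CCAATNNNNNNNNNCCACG on either strand, in the 250 bases before each RefSeq start (GRCm38.p6). A promoter window was given for 68 of the 81 members, among them 21 of the 24 ER genes. The element was found in 7 of these 21 and in 0 of 36 genes of the cytosol and nucleus with a window, and 0.113% of all 32851 windows held it. The 7 stretches are shown because they belong to ER chaperones whose values are given above, with the element in capitals and 12 bases on either side. They lie at chr2:34772013-34772055 (plus strand), chr10:86705521-86705668 (minus strand, with a match on each strand), chr8:84847063-84847105 (minus strand), chr11:50325788-50325830 (minus strand), chr14:118937815-118937857 (plus strand), chr15:88819508-88819550 (plus strand) and chr12:17266479-17266521 (plus strand), and run 5′ to 3′ on the strand of the gene. In the stretches of *Calr* and *Creld2* and in the second match of *Hsp90b1* the letters are those of the other strand.
Hspa5: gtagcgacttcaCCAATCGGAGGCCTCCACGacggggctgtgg
Hsp90b1: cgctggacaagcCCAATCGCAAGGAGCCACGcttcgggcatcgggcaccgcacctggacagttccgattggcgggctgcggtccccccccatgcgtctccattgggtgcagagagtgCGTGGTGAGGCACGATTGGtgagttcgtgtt
Calr: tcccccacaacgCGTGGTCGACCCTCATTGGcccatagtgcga
Canx: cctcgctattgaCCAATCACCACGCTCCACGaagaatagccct
Dnajc3: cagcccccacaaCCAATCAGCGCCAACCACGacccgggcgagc
Creld2: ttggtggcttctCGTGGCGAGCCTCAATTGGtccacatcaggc
Pdia6: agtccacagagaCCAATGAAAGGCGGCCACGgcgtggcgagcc
All 7 of these genes had a log2 fold change below 0, with a median of -0.11 and a range of -0.33 (*Hspa5*) to -0.02 (*Pdia6*), and none passed the thresholds. The 14 ER genes with a window and no match had a median of -0.16, with 11 below 0. A second form of the element, ATTGG and CCACG with 1 free base between them, was in 0 members and 0.0304% of windows. TGACGTGG, which holds CGTGG, the end of the first element read from the other strand, was in *Dnajc25* (log2 fold change 0.03) and in 0.563% of windows. A match of letters is a description of the window and no evidence of binding.

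Among the cytosolic and nuclear genes, 21 of 42 lay below 0 and the median log2 fold change was 0.00. *Hspa4l* was lower in MM-3T3-L1s and *Hspa1l* was higher, and *Dnajc21* was lower at a fold change under 1.5. The MM-3T3-L1 arrays lay all above both control arrays for 6 of the 42 genes and all below them for 6, shares close to the 11.9% and 12.2% of all probe sets. Of the 6 higher ones, 3 (*Hspa1l*, *Dnajb3* and *Hspb7*) lay at or below the background level.

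*Hspa4l* encodes a member of the Hsp110 family, which exchanges nucleotide on Hsp70. It had 4.27, 4.40 and 4.20 in MM-3T3-L1s, against 5.01 and 5.47 in controls. The groups were apart by more than either spread (log2 fold change -0.95, 95% CI -1.37 to -0.53, fold 0.517), with an adjusted p of 0.406 in limma. Of the same family, *Hspa4* had 9.64, 9.68 and 9.56 in MM-3T3-L1s and 9.45 and 9.39 in controls, so all its MM-3T3-L1 arrays were above the control arrays (log2 fold change 0.21, SE 0.11, adjusted p = 0.68 in limma). *Hsph1* (Hsp105), which heat induces, had 6.76 on every MM-3T3-L1 array and 6.76 and 6.79 in controls. Identical values on 2 or more arrays occurred in 15 of the 81 members and in 27.3% of all probe sets. The reason was not tested, so such values are no measure of how precisely a gene was measured.

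The Hsp70 genes that heat shock induces, *Hspa1a* and *Hspa1b*, encode nearly the same protein, and the signals of their probe sets may not be separable. *Hspa1a* had 5.76, 5.11 and 5.57 in MM-3T3-L1s and 5.15 and 5.22 in controls, and *Hspa1b* had 5.59, 4.92 and 5.40 in MM-3T3-L1s and 5.14 and 5.07 in controls. In both, MM-3T3-L1 replicate 2 was the lowest of the 5 arrays and the other MM-3T3-L1 arrays were the highest, and neither passed (log2 fold changes 0.29, SE 0.21, and 0.20, SE 0.21). *Hspa1l*, their neighbour known mainly from testis, had 3.68, 3.70 and 3.20 in MM-3T3-L1s and 2.86 and 2.85 in controls (log2 fold change 0.68, SE 0.18, fold 1.6, adjusted p = 0.544 in limma). Its mean lay below the background level, and the call was lost without control replicate 1 (adjusted p = 0.672 in limma) and without control replicate 2 (adjusted p = 0.874). *Hspa12a*, a distant Hsp70 relative, had 4.04, 5.02 and 4.40 in MM-3T3-L1s and 4.80 and 4.88 in controls (log2 fold change -0.35, SE 0.29). Without MM-3T3-L1 replicate 2 it reached -0.62 and passed the thresholds (adjusted p = 0.609 in limma).

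*Hsp90aa1*, the heat-inducible cytosolic Hsp90, had 9.33, 9.43 and 9.44 in MM-3T3-L1s and 9.28 and 9.44 in controls. These overlapped fully, and the log2 fold change of 0.04 had a 95% CI of -0.24 to 0.32. *Dnajb1* (Hsp40), the J protein that heat shock induces with Hsp70, had 6.41, 6.39 and 6.18 in MM-3T3-L1s and 6.41 and 6.60 in controls (log2 fold change -0.18, SE 0.13). *Dnajb4* had 7.57, 7.51 and 7.69 in MM-3T3-L1s and 7.26 and 7.49 in controls, and all its MM-3T3-L1 arrays were above the controls (log2 fold change 0.21, SE 0.13, adjusted p = 0.695 in limma).

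*Dnajc21*, a nuclear J protein of ribosome assembly, had 7.97, 8.04 and 7.82 in MM-3T3-L1s and 8.33 and 8.40 in controls. The gap between the groups exceeded the spread within them, and the p was under 0.05 before adjustment, at a log2 fold change of -0.42 (adjusted p = 0.551 in limma, SE 0.12), a fold of 0.747. Without control replicate 2 it was -0.38 and the p was no longer under 0.05. *Dnajc9*, a histone chaperone, and *Dnajc24*, of diphthamide synthesis, also had every MM-3T3-L1 array below the controls, at -0.14 (SE 0.11) and -0.20 (SE 0.13). *Hspbp1*, a nucleotide exchange factor of Hsp70, had every MM-3T3-L1 array above them at 0.15 (SE 0.11). Most of the other cytosolic J proteins stayed near 0, among them *Dnaja2* (0.07), *Dnaja4* (-0.01), *Dnajb6* (0.02), *Dnajc5* (0.02), *Dnajc7* (0.01), *Dnajb2* (0.05), *Dnajc2* (0.02), *Dnajc8* (-0.04) and *Dnajc17* (-0.03). *Hspa14*, *Hspa12b* and *Hspbap1* were at 0.04, -0.04 and -0.23, each within 1 SE of 0. *Dnajc6*, *Dnajc12* and *Dnajc27*, at or below the background level, were at 0.31, 0.15 and -0.20.

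Small heat shock proteins hold aggregating proteins without using ATP. Of the 7 members named Hspb1 to Hspb9, 5 lay below 0, with a median of -0.15. This median is the value of *Hspb9*, which lay below the background level, and 4 of the 7 lay above that level. *Hspb8*, which with BAG3 delivers clients to autophagy, had 6.63, 6.78 and 6.07 in MM-3T3-L1s and 6.88 and 7.08 in controls. All its MM-3T3-L1 arrays were below the controls, but replicate 3 lay far from the others (log2 fold change -0.48, SE 0.23, adjusted p = 0.672 in limma). Without MM-3T3-L1 replicate 2 it passed the thresholds at -0.63 (adjusted p = 0.633 in limma), and without MM-3T3-L1 replicate 3 it was -0.27. *Hspb1* (Hsp27) had 4.73, 4.80 and 4.502 in MM-3T3-L1s and 5.03 and 4.40 in controls, so the control arrays alone spanned all others. *Hspb6* (log2 fold change -0.30, SE 0.17) overlapped, and *Hspb2*, known from muscle, had 5.10, 4.87 and 4.61 in MM-3T3-L1s and 5.16 and 5.12 in controls (-0.28, SE 0.17). Besides *Hspb2* and *Hspa1l*, 9 cytosolic members are known mainly from testis or muscle. Of these, *Hspa2* and *Dnajb8* lay above the background level, with overlapping arrays and log2 fold changes of -0.06 and 0.46. *Hspb3*, *Hspb7*, *Hspb9*, *Dnajb3*, *Dnajb7*, *Dnajc5b* and *Dnajc5g* lay at or below it, between -0.28 and 0.41.

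Of the 8 mitochondrial genes, 4 lay below 0, and the median log2 fold change was 0.00. *Hspd1* encodes Hsp60, the barrel of the chaperonin, and *Hspe1* encodes Hsp10, its lid. *Hspd1* had 10.35, 10.49 and 10.45 in MM-3T3-L1s, against 10.04 and 10.10 in controls. The groups did not overlap and the p was below 0.05 before adjustment (log2 fold change 0.36, SE 0.11, adjusted p = 0.584 in limma), but the fold of 1.29 is under 1.5. Without control replicate 1 the log2 fold change of *Hspd1* was 0.33 and the p was no longer under 0.05. *Hspe1* had 11.18, 11.14 and 11.20 in MM-3T3-L1s and 11.02 and 11.14 in controls, which overlapped (0.09, SE 0.11, 95% CI -0.17 to 0.35). *Hspa9* (mortalin), the Hsp70 of the matrix, had 9.41, 8.97 and 8.95 in MM-3T3-L1s and 8.90 and 8.94 in controls. Its log2 fold change of 0.19 (SE 0.17) rested on MM-3T3-L1 replicate 1, since the other MM-3T3-L1 arrays lay next to the controls. The J proteins *Dnaja3*, *Dnajc15*, *Dnajc19* and *Dnajc30* lay between -0.05 and 0.02, and *Dnajc11* was at -0.17 (SE 0.12).

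*Hspd1* and *Hspe1* are read in opposite directions, and a RefSeq start of *Hspd1* lies 216 bases from that of *Hspe1* (another start of *Hspd1* overlaps *Hspe1*). The heat shock element, the site of heat shock factors, was searched as GAANNTTCNNGAA on either strand and was in 0.466% of all windows. It was found before *Hspd1*, *Hspe1* and *Dnajb6*. The stretch before *Hspe1* (chr1:55088047-55088088, plus strand, GRCm38.p6) is shown because these divergent genes share it, with 2 overlapping matches on opposite strands in capitals.
Hspe1: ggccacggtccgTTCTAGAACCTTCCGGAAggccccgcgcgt
Of this divergent pair, *Hspd1* had a p under 0.05 before adjustment over all 5 arrays and *Hspe1* did not, and the difference between them was not tested. The third gene with the element, *Dnajb6*, a J protein that keeps aggregating proteins soluble, had 8.90, 8.93 and 8.94 in MM-3T3-L1s and 8.92 and 8.87 in controls.

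The 7 genes left as other or unassigned had log2 fold changes from -0.06 to 0.17, and 0 of them had arrays that did not overlap between the groups. They were *Dnajb13*, *Dnajc4*, *Dnajc13*, *Dnajc22*, *Dnajc25*, *Dnajc28* and *Hspb11*.

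Set side by side, the median log2 fold change of the ER genes was -0.16 and that of the cytosolic and nuclear genes 0.00, a difference of -0.16. Computed on each array against the control mean, the ER median was -0.10, -0.09 and -0.17 on the MM-3T3-L1 arrays and -0.01 and 0.01 on the control arrays. The cytosolic median was -0.02, -0.02 and 0.00 on the MM-3T3-L1 arrays and -0.01 and 0.01 on the control arrays. The ER median minus the cytosolic median was thus -0.08, -0.07 and -0.17 in MM-3T3-L1s and 0.00 on both control arrays. It was negative on every MM-3T3-L1 array and strongest on replicate 3. All these medians are descriptions with no test, since the control arrays are their own zero and the genes of a compartment are not replicates.

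**Figure D3:**
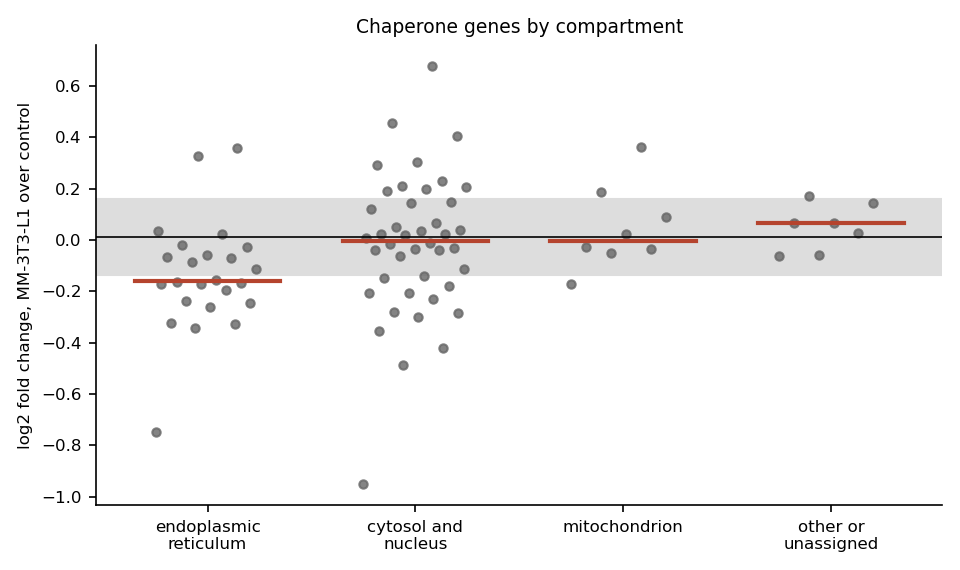
Log2 fold change (y axis, MM-3T3-L1 over control) of each member, by compartment; red lines are medians, the black line is the median of all 19505 genes (0.01) and the grey band their quartiles (-0.13 to 0.16). The ER genes centre below the band at -0.16, and the cytosolic and mitochondrial genes centre at 0.00.

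**Figure D4:**
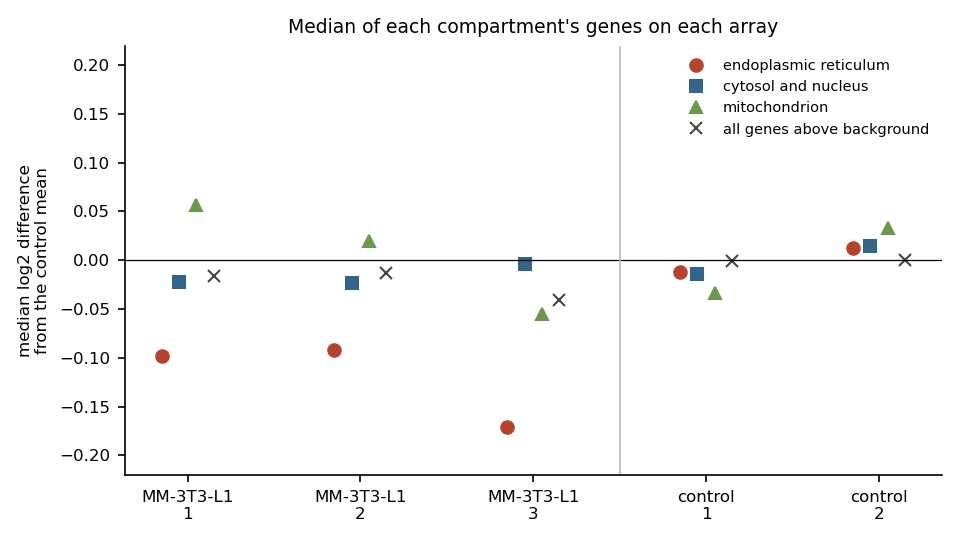
Median, over the genes of each compartment, of the log2 difference from the control mean (y axis) on each array (x axis). The ER genes lie at -0.10, -0.09 and -0.17 on the MM-3T3-L1 arrays, below the cytosolic genes and below all genes above background (-0.02, -0.01 and -0.04).

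The size of this difference depended on the arrays and genes used. Leaving out any 1 array gave a smaller difference, from -0.134 to -0.0678, and a narrower choice of compartment genes gave -0.0977. The smallest came from leaving out MM-3T3-L1 replicate 3. Without MM-3T3-L1 replicate 3, the array with the narrowest spread of values, the ER median was -0.08, 17 of 24 genes lay below 0 and the difference from the cytosolic median was -0.07. When the arrays were quantile-normalized once more, the ER median was -0.09 and the cytosolic median 0.06, so the difference between them kept its size. The genes as bright as the upper part of the ER group (a mean log2 value of 7.12 or more, 3887 genes) had a median of -0.03 with 58% below 0, so bright genes in general also lay slightly below 0. The preadipocyte and fibroblast markers had a median of -0.29, and their part in the ER values was not tested.

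Other genes of protein folding were counted in 6 lists of non-members, and 0 genes of any list passed the thresholds. Of the sensors and transcription factors of the unfolded protein response (15 of 16 listed had a probe set), 6 lay below 0, with a median of 0.04. *Ern1* (IRE1), *Eif2ak3* (PERK) and *Atf6*, the sensors, had log2 fold changes of 0.04, -0.04 and 0.04. Their effectors *Xbp1* and *Atf4* were at 0.02 and 0.12, each within 2 SE of 0. These are levels of RNA, and the activity of the sensors and factors was not measured. *Ddit3* (CHOP), a factor induced late in ER stress, had 10.12, 10.19 and 10.44 in MM-3T3-L1s and 10.38 and 10.79 in controls (-0.34, SE 0.17, adjusted p = 0.678 in limma). The name of its probe set marks it as unmapped, which limits this reading. The smallest p-values of the list belonged to *Creb3* (-0.26, SE 0.12) and *Creb3l1* (-0.34, SE 0.16), membrane-bound factors related to ATF6, with adjusted p-values of 0.67 and 0.677 in limma.

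In ER-associated degradation, which sends misfolded proteins to the proteasome, 13 of 19 genes lay below 0 (median -0.07), among them *Selenos* at -0.26, while *Edem3*, a mannosidase, was at 0.33 (SE 0.14). Of 29 genes of oxidative folding and glycoprotein processing, 21 lay below 0 (median -0.07), including *Sdf2*, at -0.33, and *Fkbp9*, at -0.25. The classical isomerase *P4hb* was at -0.08 (SE 0.11) and the oxidase *Ero1a* at -0.07 (SE 0.12). In the cytosol, the heat shock factors and co-chaperones (23 genes) had a median of 0.04 with 7 below 0, and the chaperonin and prefoldin genes (13) had 0.05 with 4 below 0. The gene of these cytosolic lists with a p under 0.05 before adjustment was *Cryab*, the small heat shock protein alpha-B crystallin. It had 9.35, 9.59 and 9.37 in MM-3T3-L1s and 9.82 and 9.97 in controls (log2 fold change -0.46, SE 0.13, adjusted p = 0.551 in limma). Without control replicate 2 it was -0.39, with a p above 0.05. Mitochondrial folding genes and proteases (14) had a median of -0.10 with 10 below 0, and *Hscb*, a J protein of iron-sulfur cluster assembly, was at -0.46 (SE 0.17, adjusted p = 0.632 in limma) with a p under 0.05 before adjustment. This p was lost without control replicate 1 (-0.43) and without control replicate 2 (-0.49).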

How the data were processed

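The deposited values are log2 signals that the authors made from the array scans with the RMA method (robust multi-array average) of Partek, which corrects the background, brings arrays to a shared distribution and summarises the probes of a transcript. The sources used here do not say whether the 5 arrays were normalized alone, and labels and methods differ on the RNA input. All 22206 probe sets were fitted with limma 3.58.1 (lmFit, then eBayes) under R 4.3.3, group being the only term (3 residual and 2.79 prior degrees of freedom, two-sided), and adjusted by Benjamini and Hochberg over all of them. An exact permutation test of 3 against 2 arrays cannot go below p = 0.1 and was not used. The script was tested on simulated data.

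Gene symbols came from the platform's annotation (19572 probe sets had 1 symbol, 2634 had none), and the brightest probe set stood for a gene. All 81 member symbols were in the RefSeq table. Members and lists were chosen with earlier results of these data known. Named in the text are members past the thresholds or at a p of 0.05 or less before adjustment, the 4 largest changes each way per compartment among those above background with arrays apart, fixed well-known chaperones, and the 2 list genes of smallest p. Other names were added after their values were seen. SD is between the arrays of a group and SE is from limma. The number of arrays limits the precision. Promoters came from RefSeq (GRCm38.p6). Alternatives were the methods' ANOVA, other priors, normalizations, weights and filters, a replicate block, narrower compartment lists and leaving out each array.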

Additional observations from a re-analysis of the deposited data

How the results depend on the processing

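The count of lower genes stayed at 2 under the ANOVA, the intensity trend, the filter on dim probe sets, quantile normalization, median centring, array weights, the probe set mean and the block, and the count of higher genes at 1 except for 0 without dim probe sets (*Hspa1l* is dim). At any fold change the counts were 2 higher and 3 lower. Leaving out 1 MM-3T3-L1 array gave 1 higher and 2 to 4 lower genes. The 4 arose without MM-3T3-L1 replicate 2, where *Hspb8* and *Hspa12a* were added. The share of all probe sets called in these fits is not given here, so the 4 cannot be set against it. Fits without a control array leave 1 control array, and their counts are not given. The ER median was -0.0908 after quantile normalization, -0.111 with array weights, -0.0843 with the replicate block and -0.111 in narrower compartment lists (19 ER genes without membrane J proteins, and 31 cytosolic genes without those of testis or muscle). The cytosolic median was 0.0573 after quantile normalization. Their difference was -0.0678 with the replicate block and -0.0977 in the narrower lists. Leaving out 1 array gave -0.142 to -0.0843 for the ER median, -0.017 to 0.0244 for the cytosolic median and -0.134 to -0.0678 for the difference. The causes were not tested, except that the block acts through fewer samples: the block of replicate 3 holds 1 array, so its medians are those without MM-3T3-L1 replicate 3. Array weights were 0.513 for that array and 0.944 to 1.29 for the others.

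The labels do not say whether the replicate numbers pair the samples. The deviations of same-numbered arrays from their group means correlated at -0.0274 and 0.0603. With 2 control arrays, the deviations of control replicate 1 are those of control replicate 2 with the sign turned. Whether the numbers pair the samples therefore cannot be told from these values. With the replicate block, *Canx* was 0.0249, *Pdia6* 0.0724, *Dnajb11* 0.00471 and *Hspb1* 0.0481. The block took the p of *Hspd1* (0.35) and *Hscb* (-0.32) above 0.05 before adjustment and brought that of *Hspa5* (-0.41) and *Dnajb9* (0.48) under it, each at a fold under 1.5. For *Hspa5* array weights (-0.37) and the intensity trend (-0.33) did so too. The intensity trend also did so for *Hsp90b1* (-0.25) and *Hspa4* (0.21), and the methods' ANOVA for *Hspa4* and *Dnajc9* (-0.14). Quantile normalization gave *Pdia6* 0.0357 and *Hsph1* 0.064, and array weights gave *Pdia6* 0.023. *Canx*, *Pdia6*, *Dnajb11*, *Hspb1* and *Hsph1* were near 0 and below it in the fit reported. Leaving out 1 array gave -0.14 to 0.0249 for *Canx*, -0.156 to 0.0272 for *Calr*, -0.066 to 0.0724 for *Pdia6*, -0.146 to 0.00471 for *Dnajb11*, -0.0313 to 0.0 for *Hsph1*, -0.356 to 0.277 for *Hspb1* and -0.0382 to 0.119 for *Hsp90aa1*. Without MM-3T3-L1 replicate 2, *Hyou1* (-0.39), *Hspa1a* (0.48) and *Hspa1b* (0.39) had a p under 0.05 before adjustment, as had *Creld2* (-0.30) and *Hspb2* (-0.40) without MM-3T3-L1 replicate 1. Of the 24 ER genes, 17 to 21 lay below 0 over all settings that kept this group. The probe sets of *Uggt2* and *Hspa4l* lie near the background level, which limits how well their fold changes are measured.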
